A study of Mus musculus with 36 samples.

Results

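Messenger RNA was compared between extensor digitorum longus (EDL) muscles labelled as lacking estrogen-related receptor alpha (ERRalpha, gene Esrra) in muscle fibres and EDL muscles of wild-type littermates. The comparison holds every library whose title names EDL and the ERRalpha class, which gave 6 of the 36 libraries: 3 labelled ERRalpha mKO (muscle-specific knockout) and 3 labelled WT. All mice were males of 1 year on the C57BL/6JBom background after at least 10 generations of backcrossing, fed chow and housed near 22 °C on a 12 h light cycle. The knockout-labelled mice carried a floxed Esrra gene and a Cre recombinase driven by the human alpha-skeletal actin promoter, which is active in skeletal muscle fibres, so other cells of the muscle keep the gene. The wild-type littermates carried the floxed gene without Cre, as the table's column names were read. Where other groups are used below, they are the soleus muscles of the same ERRalpha class, and EDL muscles of mice labelled as lacking ERRalpha with ERRgamma or ERRbeta with ERRgamma (dmKO), each with 3 libraries and 3 of its own wild-type littermates.

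ERRalpha, ERRbeta and ERRgamma are orphan nuclear receptors that bind a shared DNA element and, with the coactivators PGC-1alpha and PGC-1beta, drive genes of mitochondrial energy metabolism. ERRalpha is the most broadly expressed of the family, while ERRgamma is most abundant in oxidative muscle. The EDL is a fast muscle of the lower leg that relies largely on glycolysis, and the soleus is its slow, oxidative counterpart. The design asks which transcripts of a fast muscle depend on ERRalpha alone.

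Values are log2 signals as the authors deposited them, quantile normalized, so 1 unit is a doubling. A change is the mean of the 3 knockout-labelled libraries minus the mean of the 3 wild-type libraries, given ± its standard error (SE). Where a library had no value for a gene, the mean is over the libraries with one. A gene is called higher or lower where limma's test, with Benjamini-Hochberg adjustment over all genes tested, gave an adjusted p under 0.05, and every adjusted p below is of this kind. Read totals were removed by the normalization, so depth is unknown. The nearest measure was the number of genes with a value, 13689 to 14010 in the wild-type and 13836 to 14060 in the knockout-labelled libraries. Correlations between libraries across genes were 0.980 to 0.982 within the wild-type group, 0.983 to 0.984 within the knockout-labelled group and 0.975 to 0.980 between them. In bulk muscle, fewer cells of a type and less RNA per cell cannot be told apart.

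The gene named in the labels was examined first. Esrra (chr19:6910977-6921813, minus strand, GRCm38) read 5.29, 5.12 and 5.20 in the wild-type libraries and 5.09, 4.92 and 5.03 in the knockout-labelled libraries. Every knockout-labelled value lay below every wild-type value, but the change of -0.19 ± 0.12 was not called (adjusted p = 0.482). In soleus of the ERRalpha class, Esrra changed by 0.33, so it was not lower there, and none of the 3 receptor genes was called. The difference between the muscles, -0.52, was not called either. In the EDL of the ERRalpha/ERRgamma class, the same gene was lower by a change of -2.23, and the difference between the changes was 2.04 ± 0.16 (adjusted p = 2.78e-10). Whether reads from undeleted parts of the gene still count toward it was not tested, and neither was a mix of labels. Esrra here does not settle the labels, and the libraries are called knockout-labelled throughout. Every direction below rests on the labels and on the reading of the column names.

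Of the other receptors, Esrrg, the gene for ERRgamma (chr1:187608791-188214885, plus strand), read 1.51, 1.25 and 1.25 in the wild-type libraries and 1.87, 2.07 and 1.91 in the knockout-labelled ones. It rose by 0.61 ± 0.15 (adjusted p = 0.0198), and its groups did not overlap. The call was lost in a fit of these 6 libraries alone (adjusted p = 0.0633) and without wild-type replicate 2 (0.0806) or 3 (0.0827) or knockout-labelled replicate 2 (0.0942) or 3 (0.0525). Esrrb, the gene for ERRbeta, was low in all 6 libraries, between -0.92 and 0.68, and changed by -0.66 ± 0.21 without being called (adjusted p = 0.0799).

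Across the table, 436 of 13285 genes tested were called (3.28%), 242 of them higher (1.82%) and 194 lower (1.46%) in the knockout-labelled muscles. The genes called higher had a median change of 0.74 and those called lower a median of -0.45, and 80 rises against 30 falls exceeded 1 log2 unit. The median over all genes tested was 0.018. The 3 knockout-labelled values lay above the 3 wild-type values in 1876 genes (14.1%) and below them in 1317 genes (9.91%). The number called depended on single libraries: it fell to 276 without wild-type replicate 2, 280 without wild-type replicate 3, 238, 260 and 225 without knockout-labelled replicate 1, 2 and 3, and to 201 in a fit of these 6 libraries alone, of which 157 were also among the 436.

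**Figure D1:**
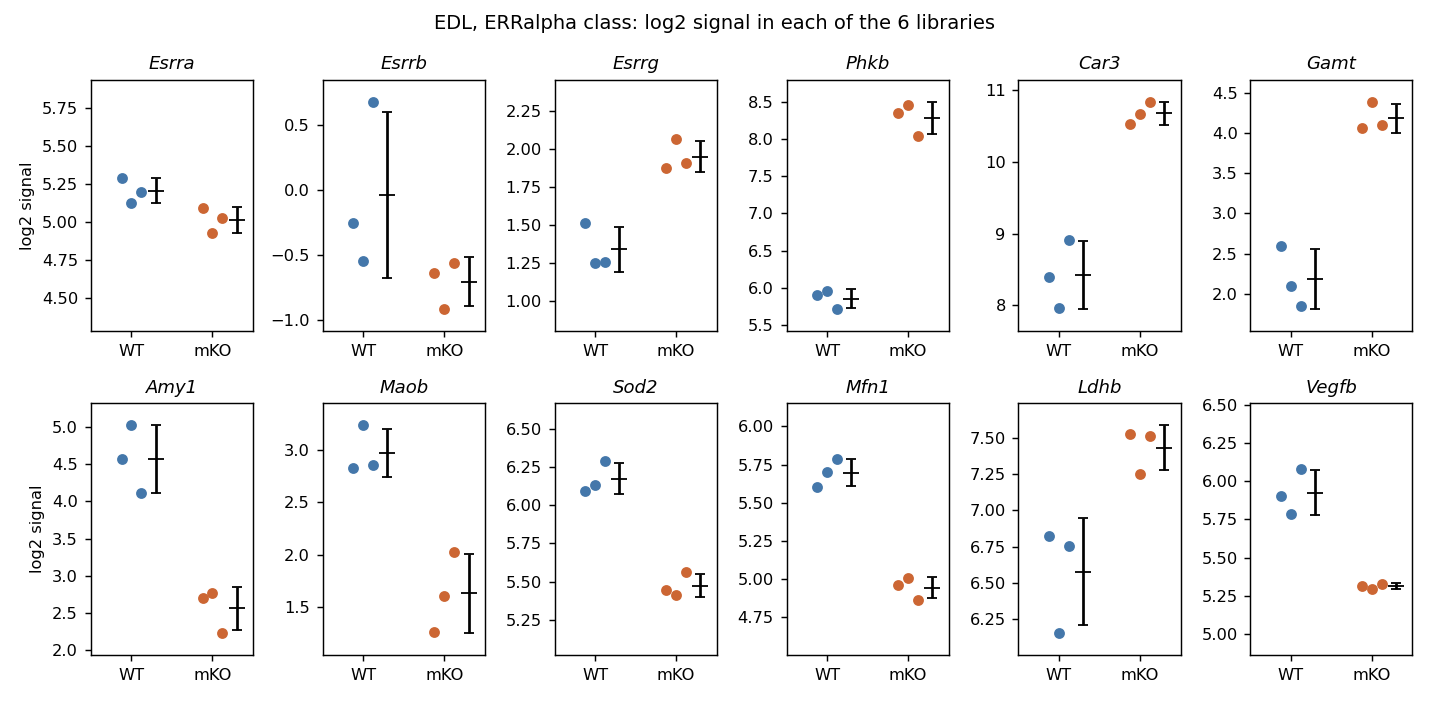
Log2 signal (y axis) of 12 genes in the 3 wild-type and 3 knockout-labelled EDL libraries of the ERRalpha class; points are libraries and bars the mean ± SD. Phkb, Car3 and Gamt sit higher in all knockout-labelled libraries, Amy1, Maob, Sod2, Mfn1 and Vegfb lower, while the Esrra groups differ by only 0.19.

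Genes of the respiratory chain were lower in knockout-labelled muscle. The chain passes electrons from NADH and succinate through complexes I to IV to oxygen, and ATP synthase uses the resulting proton gradient. Of 83 subunit genes tested, 44 were called lower, against 1.46% of all genes, and none was called higher. In 63 of the 83 every knockout-labelled library lay below every wild-type library, against 9.91% of all genes. Of the 83, 81 had a change below 0, and the median change was -0.28. Per library, the median of the 83 genes relative to the wild-type mean was -0.006, -0.073 and 0.079 in the wild-type libraries and -0.277, -0.320 and -0.260 in the knockout-labelled libraries, so the groups did not overlap. The count called fell to 29 without wild-type replicate 3, and was also 29 in a fit of these 6 libraries alone.

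The calls came from every complex but complex II. In complex I, 22 of 36 subunits fell: 4 of the 7 core subunits, which carry the catalytic chemistry, and 18 of the 29 accessory subunits. Complex III with cytochrome c followed with 6 of 10 (median change -0.32), cytochrome c oxidase with 9 of 16 (-0.33) and ATP synthase, its inhibitor Atpif1 included, with 7 of 17 (-0.23). None of the 4 subunits of complex II, the succinate dehydrogenase of the tricarboxylic acid cycle, was called, and their median was -0.10. With 4 assembly factors the complex II list held 8 genes, none called, and a median of -0.016. The flavoprotein subunit gene Sdha read 8.41, 8.38 and 8.34 in wild-type and 8.12, 8.11 and 8.13 in knockout-labelled muscle, with no overlap between the groups, and the change of -0.26 ± 0.10 was not called (adjusted p = 0.170). The iron-sulfur subunit gene Sdhb read 8.44, 8.27 and 8.57 in wild-type and 8.20, 8.38 and 8.24 in knockout-labelled muscle, and the groups overlapped. Of genes that help to assemble the complexes but are not part of them, those called lower numbered 3 of 13 for complex I, none of 6 for complex III and none of 17 for cytochrome c oxidase, against 1.46% of all genes. The 3 became 1 without wild-type replicate 3, without knockout-labelled replicate 1 or 3, and in a fit of these 6 libraries alone.

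Ndufa1, an X-linked accessory subunit gene of complex I, read 7.03, 6.95 and 7.20 in wild-type and 6.27, 6.28 and 6.49 in knockout-labelled libraries, and fell by 0.71 ± 0.10 on the log2 scale (adjusted p = 1.92e-05), which is 1.64-fold. Ndufa13, another accessory subunit, read 6.19, 6.24 and 6.46 against 5.60, 5.58 and 5.72 (adjusted p = 9.59e-06). Neither gene's groups overlapped. Ndufa4, first assigned to complex I and now known as a part of cytochrome c oxidase, read 9.66, 9.77 and 9.83 against 9.04, 9.19 and 9.08 and fell by 0.65 ± 0.10 (adjusted p = 0.000201). Cox6a2, the muscle form of a cytochrome c oxidase subunit, read 9.19, 9.20 and 9.23 against 8.82, 8.76 and 8.88, a small fall of 0.38 ± 0.06 with little spread in either group. Uqcrh, the hinge protein gene of complex III, read 8.66, 8.77 and 8.84 against 8.26, 8.34 and 8.31, and Atp5c1, the gamma subunit of ATP synthase that turns within it, read 8.40, 8.35 and 8.50 against 8.05, 8.09 and 8.11. All of these kept their call in each alternative fit.

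Other subunits of the same complexes were not called. Cox7b read 8.36, 8.10 and 8.41 in wild-type and 8.25, 8.34 and 8.36 in knockout-labelled libraries, a change of 0.02. Cox8b, a muscle form of its subunit, changed by -0.13, and the ATP synthase catalytic subunit gene Atp5b read 10.19, 10.23 and 10.37 against 10.13, 9.99 and 10.06, a change of -0.21 ± 0.09 that was not called (adjusted p = 0.263).

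**Figure D2:**
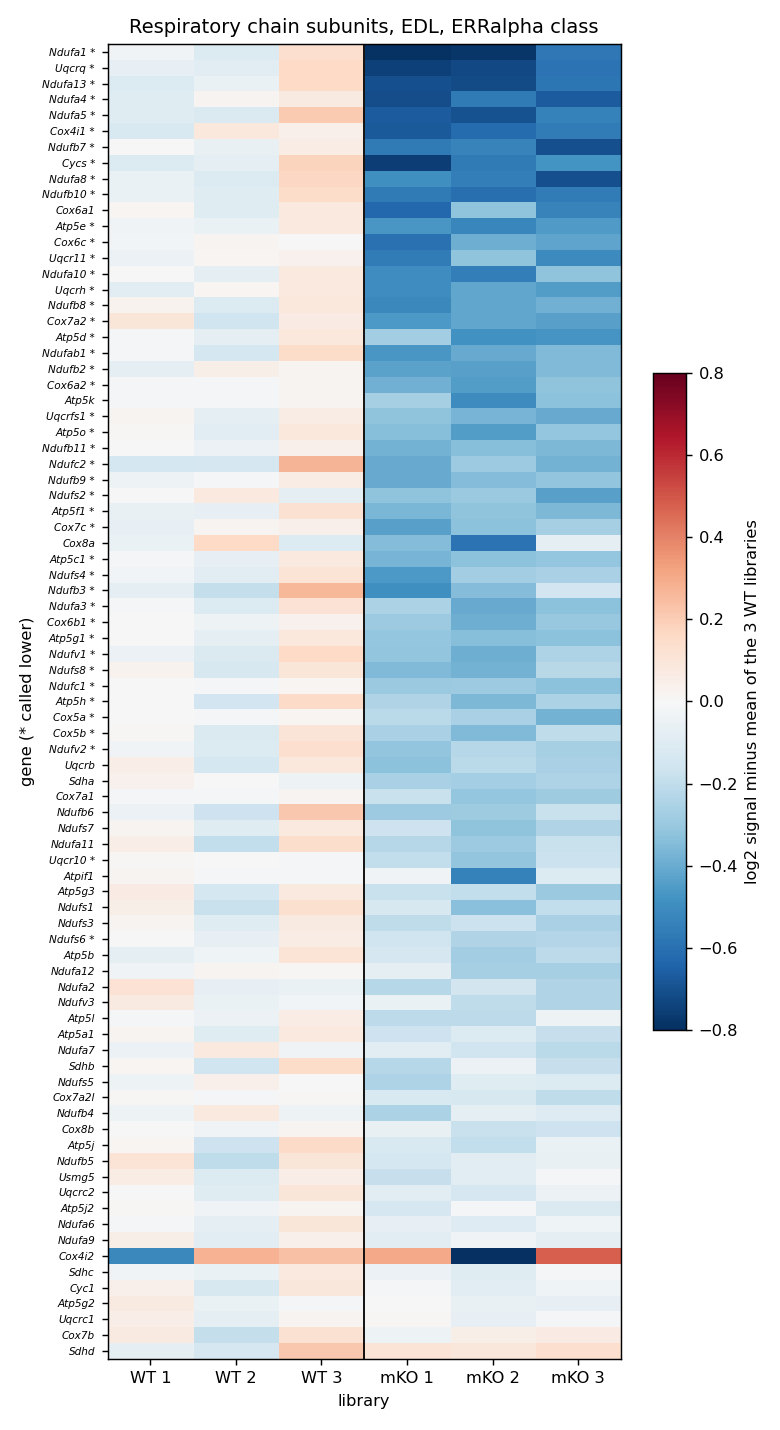
Heat map of 83 respiratory chain subunit genes, ordered by their change, in the 6 EDL libraries of the ERRalpha class; color is the log2 signal minus the mean of the 3 wild-type libraries, and asterisks mark the 44 genes called lower. The knockout-labelled columns are blue (lower) for most genes, with Ndufa1 at the top at -0.71, and the succinate dehydrogenase genes carry no asterisk.

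Promoters of these genes are shown for some of the members that hold the core of the ERR response element. RefSeq promoter windows (GRCm38.p6, 250 bases before to 50 after the start) were searched on both strands for AAGGTCA, the core of the element, and for the longer form TNAAGGTCA, whose matches all contain the core. A window was found for 10166 of the 13285 genes tested. The core was in the window of 11 of 149 genes called lower (7.38%), 10 of 186 called higher (5.38%), 403 of the 10166 tested (3.96%) and 1550 of all 32851 windows (4.72%). The longer form was in none of the 149 lower and none of the 186 higher, in 96 of those tested (0.944%) and in 421 of all windows (1.28%). Among respiratory chain genes with a window, the core occurred in 2 of 37 called lower and in 7 of 30 not called. Those whose match lies before the start are printed below, apart from any on a chromosome that was left out of the printing. The stretches run 5′ to 3′ on the gene's strand, and have the match in capitals; where the core lies on the other strand, the capitals show its reverse complement. They are shown to set a subunit that fell, Ndufb2, beside 5 with the same letters that were not called.
Ndufb2: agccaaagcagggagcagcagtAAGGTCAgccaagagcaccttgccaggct
Atp5g3: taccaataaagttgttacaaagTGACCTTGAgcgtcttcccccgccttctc
Ndufb4: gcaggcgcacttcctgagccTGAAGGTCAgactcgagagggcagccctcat
Atp5l: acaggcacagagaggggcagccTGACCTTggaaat
Ndufs5: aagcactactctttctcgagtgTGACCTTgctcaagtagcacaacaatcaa
Atpif1: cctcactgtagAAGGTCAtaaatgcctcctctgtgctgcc

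Ndufb2, an accessory subunit gene of complex I whose stretch is chr6:39592362-39592412, fell by 0.41 ± 0.08 (adjusted p = 0.00237). Atp5g3, a gene for the membrane ring of ATP synthase (chr2:73911350-73911400), holds the longer form and changed by -0.22 ± 0.09 without being called (adjusted p = 0.240). Ndufb4 (chr16:37654395-37654445), another complex I subunit, also holds the longer form, and its change of -0.14 ± 0.07 was not called. Of the rest, Atp5l (chr9:44920743-44920777) changed by -0.15, Ndufs5 (chr4:123718386-123718436) by -0.15 and the inhibitor gene Atpif1 (chr4:132535625-132535664) by -0.23, none of them called. In the ERRalpha/ERRgamma EDL, Ndufb2 had a change of -0.96, Atp5g3 of -1.82, Ndufb4 of -0.43, Atp5l of -1.07, Ndufs5 of -0.20 and Atpif1 of -0.04. A match describes the letters only, and the data hold no measure of binding.

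The pathways that feed the chain gave some calls. Of 14 tricarboxylic acid cycle genes, 4 were called lower and none higher, with a median of -0.14. Suclg1, the shared alpha subunit of succinyl-CoA ligase, read 7.36, 7.36 and 7.47 in wild-type and 7.04, 7.01 and 7.03 in knockout-labelled libraries, and fell by 0.37 ± 0.07 (adjusted p = 0.00301). The count was 2 of 14 when any 1 of the 6 libraries was left out and in a fit of these 6 alone. Of 14 genes for pyruvate entry, 4 fell; Pdha1, the E1 alpha subunit of pyruvate dehydrogenase, read 8.27, 8.24 and 8.18 against 7.83, 7.84 and 7.81, and fell by 0.40 ± 0.08. The share over all genes was 1.46%, and the 4 became 1, Pdha1, without wild-type replicate 3, without knockout-labelled replicate 1 or 3, and in a fit of these 6 libraries alone. In a fit of the 18 EDL libraries the count was 2. Mdh1, the cytosolic malate dehydrogenase of the malate-aspartate shuttle, was the 1 gene of 8 in the shuttles to fall, by 0.43 ± 0.10 (adjusted p = 0.0106), a call lost in a fit of these 6 libraries alone (0.0586) and without wild-type replicate 3 (0.0943) or knockout-labelled replicate 2 (0.0544).

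Fatty acid oxidation genes were not called: none of 21 passed in either direction, against 3.28% of all genes. Their median was -0.14, and 17 lay below 0. In 6 every knockout-labelled library was below every wild-type one, against 9.91% of all genes. The nearest to the threshold was Acadvl, the very long chain acyl-CoA dehydrogenase, at 7.05, 6.90 and 7.43 in wild-type and 6.83, 6.58 and 6.77 in knockout-labelled libraries, with a change of -0.40 ± 0.12 (adjusted p = 0.0637). It was called without wild-type replicate 2, where the list's count became 1. None of 21 genes of branched-chain amino acid and ketone body breakdown was called either.

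The 9 genes often named as textbook targets of ERRalpha gave 1 call, where 3.28% of all genes were called. Cycs, the gene for cytochrome c, read 7.38, 7.42 and 7.67 in wild-type and 6.73, 6.92 and 7.01 in knockout-labelled muscle, and fell by 0.60 ± 0.09 (adjusted p = 8.47e-05). The remaining 8, Esrra and Atp5b included, were not called. Acadm, the medium chain acyl-CoA dehydrogenase, changed by -0.02 ± 0.13, and Mfn2, a mitochondrial fusion gene, by 0.00 ± 0.11. Idh3a, the catalytic subunit of NAD-dependent isocitrate dehydrogenase, read 8.23, 8.15 and 8.26 against 8.39, 8.49 and 8.37, above in every knockout-labelled library but not called (0.20 ± 0.10, adjusted p = 0.326). Pdk4, a kinase that switches off pyruvate dehydrogenase, changed by 0.27 with an SE of 0.63, which comes from its spread within groups over all 36 libraries. In the ERRalpha/ERRgamma EDL, 8 of these 9 genes were called lower, against 6.95% of all genes. The 8 include Esrra, which that class is labelled as lacking.

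None of 26 coactivators and partner receptors was called, against 3.28% of all genes. Ppargc1a, the gene for PGC-1alpha, read 2.12, 1.57 and 1.72 against 2.20, 2.31 and 2.04 (0.38 ± 0.45). Of 17 nuclear genes that copy or transcribe mitochondrial DNA, none was called either.

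Among other mitochondrial genes, Mfn1 and Sod2 fell. The share called lower over all genes was 1.46%. Of 23 genes of mitochondrial shape and cristae, 6 fell; Mfn1, which fuses outer membranes, read 5.61, 5.70 and 5.79 in wild-type and 4.96, 5.003 and 4.86 in knockout-labelled libraries, a fall of 0.75 ± 0.08 (adjusted p = 3.01e-06). The cristae organizer genes Chchd3 (-0.43 ± 0.08) and Minos1 (-0.38 ± 0.07) fell as well. The count was 3 without knockout-labelled replicate 1 and in a fit of these 6 libraries alone. Sod2, the manganese superoxide dismutase of the matrix, read 6.10, 6.14 and 6.29 against 5.44, 5.41 and 5.56, and was 1 of 3 genes to fall among 23 antioxidant genes, with the peroxiredoxins Prdx6 and Prdx5. The groups did not overlap in Mfn1 or Sod2. The calls of Prdx6 and Prdx5 were lost in a fit of these 6 libraries alone (adjusted p = 0.100 and 0.0743), that of Prdx6 also without knockout-labelled replicate 1 (0.0556) and that of Prdx5 without wild-type replicate 3 (0.057).

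Of 79 genes of the mitochondrial ribosome 6 fell, and Mrpl34 (4.64, 4.60 and 4.90 against 3.92, 3.98 and 3.99) moved by -0.75 ± 0.15 (adjusted p = 0.00466). Of 29 import genes 3 fell and 1 rose, where 1.46% of all genes were called lower and 1.82% higher. The gene that rose, Gfer, encodes the sulfhydryl oxidase that lets imported proteins fold in the intermembrane space, and it read 3.72, 3.72 and 3.68 in wild-type and 4.32, 4.32 and 4.28 in knockout-labelled libraries (0.60 ± 0.09, adjusted p = 8.73e-05). Timm23, the inner membrane import channel, fell by 0.34 ± 0.06 (adjusted p = 0.00171). None of 18 mitochondrial chaperone and protease genes was called.

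**Figure D3:**
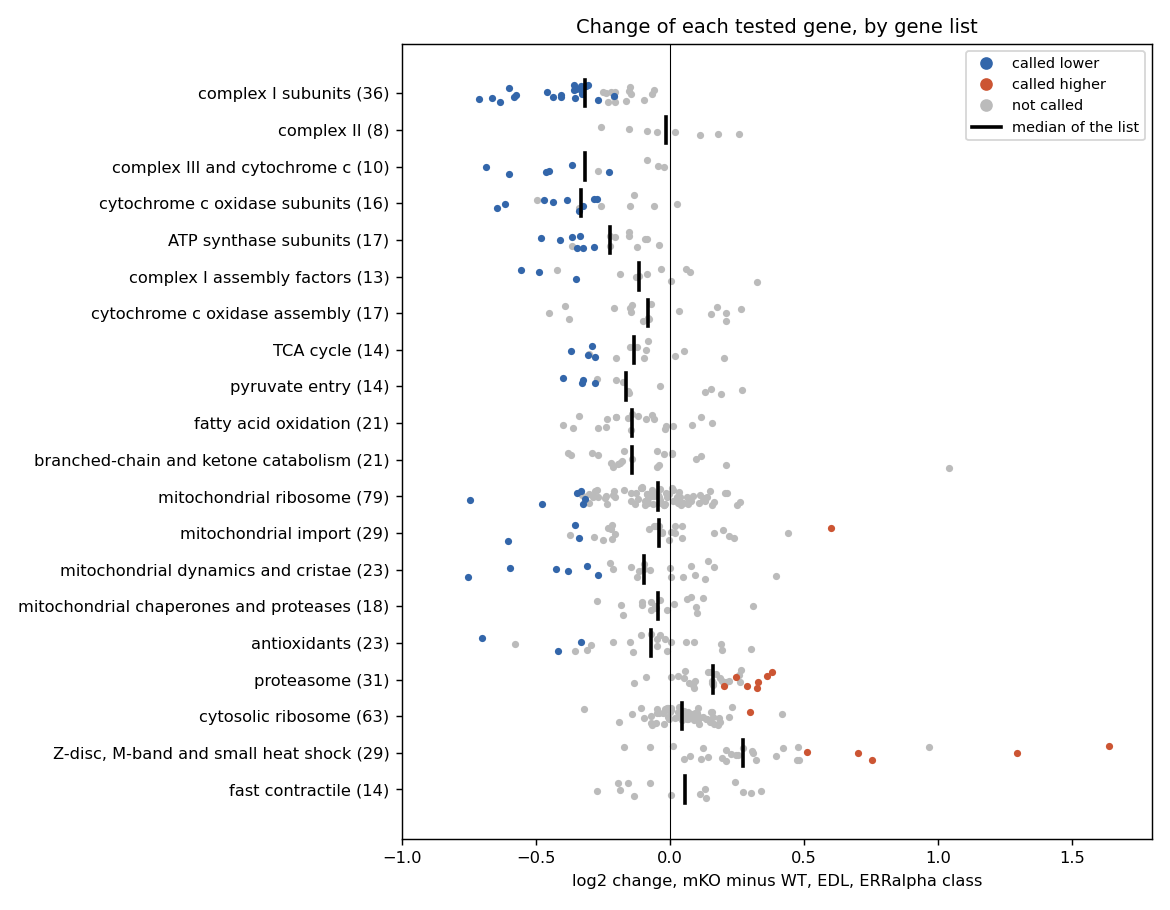
Change in log2 signal, knockout-labelled minus wild-type EDL of the ERRalpha class (x axis), for each gene of 20 gene lists (y axis); blue points are called lower, red points called higher, grey points not called, and bars mark the median of each list. The medians of complexes I, III and cytochrome c oxidase lie at -0.32 to -0.33, that of the complex II list, assembly factors included, at -0.016 and that of the proteasome at 0.16.

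Of the genes called higher whose level reached the median, Phkb had the largest rise. Phkb (chr8:85840959-86061376, plus strand) encodes the beta regulatory subunit of phosphorylase kinase, the enzyme that switches on glycogen breakdown. It read 5.90, 5.95 and 5.71 in wild-type and 8.35, 8.45 and 8.03 in knockout-labelled libraries, a rise of 2.42 ± 0.15 (adjusted p = 5.85e-12), or 5.36-fold. Of the 7 other genes of the enzyme, calmodulins included, 1 was called, against 3.28% of all genes. Phka1, the muscle alpha subunit, changed by 0.16 ± 0.17, Phkg1, the muscle catalytic subunit, by 0.03 ± 0.21, and the 3 calmodulin genes by -0.11 to 0.26. Phka2, the liver alpha subunit, was the one called (0.63 ± 0.18, adjusted p = 0.0467) and lost the call in 7 of the 15 alternatives.

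Car3, the muscle carbonic anhydrase (chr3:14863512-14872523, plus strand), read 8.39, 7.96 and 8.92 in wild-type and 10.53, 10.67 and 10.85 in knockout-labelled libraries, and rose by 2.26 ± 0.28 (adjusted p = 5.87e-06), or 4.78-fold. None of the 9 other carbonic anhydrase genes tested was called, against 3.28% of all genes. Gamt, which makes creatine in its last step, read 2.59, 2.10 and 1.85 against 4.06, 4.39 and 4.10 and rose by 2.00 ± 0.43 (adjusted p = 0.00619). Rgs2, which shortens G protein signals, read -0.07, 0.07 and 0.46 against 1.46, 2.32 and 1.85 (1.72 ± 0.25, adjusted p = 6.4e-05). In these 3 genes the lowest knockout-labelled library was above the highest wild-type library, and their calls held in every alternative fit.

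Of 25 glycolysis genes, 3 were called higher and none lower, against 1.82% and 1.46% of all genes. Pfkp, the platelet form of phosphofructokinase, was low in wild-type (-0.46, -0.73 and -0.70) and read 1.65, 1.32 and 1.76 in knockout-labelled libraries, a rise of 2.20 ± 0.37 (adjusted p = 0.000456). Ldhb, the heart form of lactate dehydrogenase, read 6.82, 6.16 and 6.75 against 7.53, 7.25 and 7.51 (0.85 ± 0.15, adjusted p = 0.000656, and 0.0591 in a fit of these 6 libraries alone). The third, Gpi1, rose by 0.33, a call lost with equal library medians (adjusted p = 0.0706), in a fit of these 6 libraries alone (0.0658) and without wild-type replicate 2 (0.0601) or 3 (0.140) or knockout-labelled replicate 1 (0.117) or 3 (0.0674). Plin3, which coats lipid droplets, read 3.31, 3.16 and 2.76 against 4.57, 4.43 and 3.88, a rise of 1.22 ± 0.20 (adjusted p = 0.000497).

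More proteasome genes rose than fell. The proteasome degrades ubiquitin-tagged proteins. Of 31 subunit genes, 7 were called higher, against 1.82% of all genes, and none was called lower. In 19 every knockout-labelled library lay above every wild-type one, against 14.1% of all genes. The median change was 0.16, small beside the rises above, and the per-library medians relative to the wild-type mean were -0.021, 0.053 and -0.024 in wild-type and 0.207, 0.149 and 0.160 in knockout-labelled libraries. Psmd6, of the regulatory lid, read 6.44, 6.56 and 6.37 against 6.92, 6.84 and 6.74 (0.38 ± 0.07, adjusted p = 0.00249), and Psmd1, of the regulatory base, 5.71, 5.66 and 5.63 against 6.05, 5.94 and 5.99. The count was 4 without wild-type replicate 1 or 2, 3 without wild-type replicate 3 or knockout-labelled replicate 1 or 3, 4 with library medians set equal, and 2 in a fit of these 6 libraries alone.

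Of 29 genes of the Z-disc, M-band and small heat shock proteins, which hold and protect the sarcomere, 5 were called higher and none lower. The shares over all genes were 1.82% higher and 1.46% lower. Hspb6, a small heat shock protein gene, read 8.83, 8.51 and 8.73 in wild-type and 9.40, 9.34 and 9.42 in knockout-labelled libraries (0.70 ± 0.11, adjusted p = 0.000278). Fhl1, a LIM protein gene, read 7.85, 6.89 and 8.68 against 8.90, 8.85 and 9.55 (1.30 ± 0.28, adjusted p = 0.00657). Its call was lost without wild-type replicate 2 (adjusted p = 0.0768), without knockout-labelled replicate 3 (0.0652) and in a fit of these 6 libraries alone (0.179). Wild-type replicate 2 also had the lowest wild-type values of Hspb7, Myoz2, Csrp3, Myh2 and Myh7. Its summed slow contractile signal was the lowest too, 10.50, where Mb alone read 10.31. Beyond the fits that leave this library out, its part in the rises was not tested. The list's count was 3 without wild-type replicate 2 or 3 and 2 without knockout-labelled replicate 3.

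Myosin heavy chain genes, which mark the fibre types, were not called in any of 10 cases, against 3.28% of all genes. Myh4, the chain of the fastest fibres, read 11.67, 11.92 and 11.69 in wild-type and 11.69, 11.69 and 11.72 in knockout-labelled libraries, and Myh1 9.47, 9.54 and 9.98 against 9.79, 9.72 and 10.10. Myh2 read 6.99, 5.75 and 7.06 against 7.44, 6.71 and 8.20 (0.85 ± 0.35, adjusted p = 0.215). The slow chain Myh7 varied from -2.48 to 1.64 within the wild-type group alone, and its groups overlapped. Myh4 was high and Myh7 low in all 6 libraries, the order known of a fast muscle such as the EDL. None of 14 fast contractile genes was called. Of 16 slow contractile genes, 2 were called higher, Myoz2 and Myom3, against 1.82% of all genes. Neither was called without wild-type replicate 2 (adjusted p = 0.0836 and 0.177), without knockout-labelled replicate 3 (0.0755 and 0.318) or in a fit of these 6 libraries alone (0.179 and 0.163), and Myom3 also not without wild-type replicate 1 (0.0891) or 3 (0.0895) or knockout-labelled replicate 1 (0.107).

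At the nerve contact, 3 of 20 genes of the neuromuscular junction list were called higher, against 1.82% of all genes. The count was 1 without wild-type replicate 3, without any 1 of the knockout-labelled libraries, or without a variance trend, as Musk and Cdkn1a lost their calls. Chrnb1, the beta subunit of the muscle acetylcholine receptor, read 3.86, 3.50 and 3.51 in wild-type and 4.28, 4.55 and 4.56 in knockout-labelled libraries (0.84 ± 0.18, adjusted p = 0.00589), and its call held in every alternative fit. None of 15 myogenic genes was called; Myod1, the regulator of muscle commitment, read 2.54, 2.59 and 2.73 against 3.68, 3.44 and 3.31, without overlap, but with an SE of 0.36 on a change of 0.86 (adjusted p = 0.23). Of 63 genes of the cytosolic ribosome, 1 was called, against 3.28% of all genes.

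Among the falls outside the mitochondrial lists, Amy1, an amylase gene (chromosome 3), read 4.58, 5.02 and 4.11 in wild-type and 2.70, 2.76 and 2.23 in knockout-labelled libraries, and fell by 2.01 ± 0.23 (adjusted p = 3.16e-06), or 4.02-fold. Amylase genes are near-identical copies, so how reads were shared between them is uncertain. Maob, the outer membrane monoamine oxidase B, read 2.83, 3.24 and 2.86 against 1.26, 1.60 and 2.02 (-1.35 ± 0.22, adjusted p = 0.000397). Slco3a1, an organic anion transporter, read 2.28, 2.29 and 2.36 against 1.33, 1.14 and 1.23 (-1.08 ± 0.14, adjusted p = 1.16e-05). Slc41a1, a magnesium transporter, read 3.83, 3.95 and 4.27 against 3.07, 3.08 and 3.31 (-0.86 ± 0.12, adjusted p = 6.67e-05). Vegfb, a growth factor gene of the VEGF family (chr19:6982473-6987651, minus strand), read 5.91, 5.79 and 6.08 against 5.32, 5.29 and 5.33 and fell by 0.61 ± 0.09 (adjusted p = 0.000108). The groups did not overlap in any of these 5 genes, and their calls held in every alternative fit.

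Markers of other cells were read as lists. None was called among 32 fibroblast and matrix, 21 leukocyte, 9 smooth muscle, 10 adipocyte, 9 Schwann cell and 6 red blood cell genes tested. Over all genes 3.28% were called, so lists this short would hold few calls or none at that share. Vegfb was the 1 called of 21 in the endothelium and angiogenesis list. Of the 32 fibroblast and matrix genes, 28 had a change below 0 (median -0.23), against 6207 of 13285 over all genes. The summed red blood cell signal was 8.24 to 8.51 in wild-type and 6.97 to 7.54 in knockout-labelled libraries. In 5 of its 6 genes every knockout-labelled library lay below every wild-type one, against 9.91% of all genes (Slc4a1 had no value). The red blood cell signal moved with the respiratory chain group, and its part in that result was not tested. Sums over the endothelium and angiogenesis list, Vegfb included, were 7.75 to 7.96 against 7.54 to 7.68, also without overlap. Of its 12 endothelial genes none was called. In 1 of them every knockout-labelled library lay below every wild-type one, against 9.91% of all genes. Smooth muscle sums were 9.45 to 9.62 against 9.66 to 9.77, without overlap. Yet the 9 smooth muscle genes had a median change of -0.022, and 5 lay below 0, as a sum follows its most abundant members. Fibroblast sums (8.33 to 9.26 against 8.42 to 9.05), leukocyte sums (4.81 to 6.54 against 5.03 to 5.45), adipocyte sums (7.17 to 7.44 against 6.96 to 7.22) and Schwann cell sums (4.36 to 4.63 against 4.11 to 5.16) overlapped.

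The same labelled comparison was read in soleus, a muscle that shares its animals with these EDL libraries. There, 95 of 13374 genes were called (0.71%), 33 of them lower (0.247%). Of the 194 genes lower in EDL, 14 (7.22%) were lower in soleus, which is 42.4% of the soleus falls, and 24 of the 242 higher (9.92%) were higher in soleus, 39.3% of the 61 soleus rises that were tested in both muscles. The respiratory chain had a median change of -0.068 in soleus, with 4 of 83 genes lower, against -0.28 and 44 in EDL, but the difference between the muscles was not called for any of the 83 when libraries were treated as independent. Over all genes that difference was called for 2 of 13262 (0.0151%), with 965 at an unadjusted p under 0.05 (7.28%). With the animal as a correlated block, which ties the EDL and soleus libraries of an animal, it was called for 9 genes, among them the respiratory chain subunit Ndufa8 (-0.43 ± 0.09, adjusted p = 0.0365). The count was 1 without EDL wild-type replicate 1 or knockout-labelled replicate 1 or 3, and 5 without wild-type replicate 3. Phkb was called in each of these fits: its change was 0.06 in soleus and 2.42 in EDL, a difference of 2.36 ± 0.21 (adjusted p = 5.69e-08). Car3 changed by 0.42 in soleus, and its difference of 1.84 ± 0.39 was not called (adjusted p = 0.111) but was with the animal block (0.0365).

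A short list of genes moved the same way in both muscles of the ERRalpha class and in the EDL of the ERRalpha/ERRgamma class. The 13 lower in all 3 were Pde7a, Mfn1, Amy1, Ndufa4, Mrps33, Slc25a4, Cox4i1, Cox7c, Iqcg, Mrpl18, Ndufb10, Maob and Tmem47. They include 4 respiratory chain subunits, 2 mitochondrial ribosome proteins and Slc25a4, the muscle carrier that exchanges ADP for ATP across the inner membrane. Amy1 was also called lower in the EDL of the ERRbeta/ERRgamma class (-1.38), which is not labelled as lacking ERRalpha. Cox4i1, a nuclear-encoded subunit of cytochrome c oxidase, read 9.22, 9.42 and 9.37 in wild-type and 8.66, 8.72 and 8.77 in knockout-labelled EDL and fell by 0.62 ± 0.08 (adjusted p = 2.03e-05). The 11 higher in all 3 were Actr1b, Usp20, Mllt11, Pomgnt1, Stk40, Tmem116, Mpp6, Lonrf1, 1700040L02Rik, Gfer and Cetn2. Both ERRalpha muscles came from the same animals, so the soleus values are not an independent repeat of the EDL values.

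**Figure D4:**
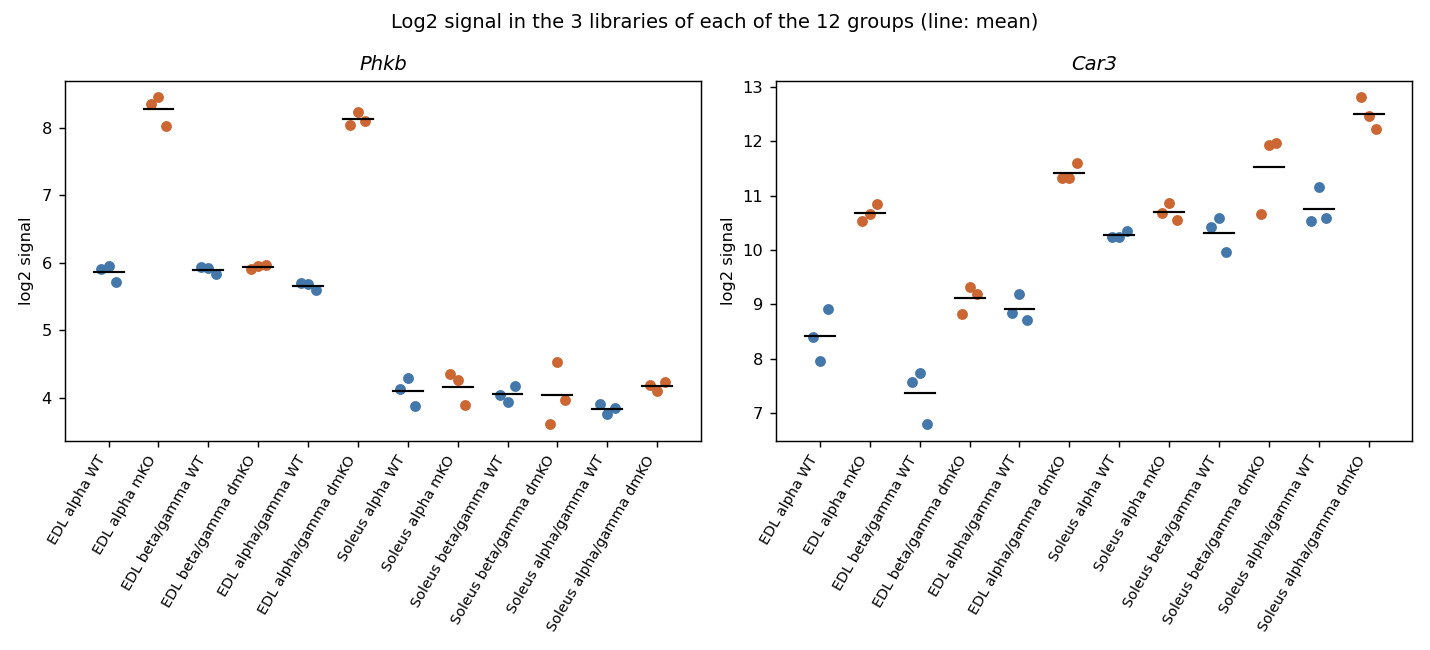
Log2 signal (y axis) of Phkb and Car3 in the 12 groups of the series, 3 libraries each (points), with a line at the group mean. Phkb is raised in the knockout-labelled EDL of the ERRalpha and ERRalpha/ERRgamma classes and not in soleus of the ERRalpha class, while Car3 is raised in all 3 EDL classes.

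Most genes called in the ERRalpha EDL were also called, the same way, in the EDL of the ERRalpha/ERRgamma class. There, 1487 of 13358 genes were called higher (11.1%) and 929 lower (6.95%). Of the 194 genes lower in the ERRalpha class, 151 were lower there too, 77.8% of the first list and 16.3% of the second, and of the 242 higher, 157 were higher there, 64.9% and 10.6%. The 2 classes have different wild-type littermates. The genes lower in the ERRalpha class had a median change of -0.84 in the ERRalpha/ERRgamma class, and those higher had a median of 0.56. The difference between the changes was called for 638 of 13261 genes (4.81%), 461 with the ERRalpha value above (3.48%) and 177 with it below (1.33%).

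The respiratory chain, at a median of -0.28, was at -1.28 in the ERRalpha/ERRgamma EDL, where 78 of 83 genes were lower, and 64 of the 83 differed between the classes. Within the chain, Ndufa1 differed by 0.18 (adjusted p = 0.617) and Cycs by 1.40 ± 0.12 (adjusted p = 2.31e-09). Lists with no call in the ERRalpha class were low in the other: 20 of 21 fatty acid oxidation genes and 20 of 21 genes of branched-chain amino acid and ketone body breakdown were called lower there, and 15 and 14 of them differed between the classes. All 14 tricarboxylic acid cycle genes differed. Chchd10, a cristae gene, changed by -0.12 ± 0.09 in the ERRalpha class and by -2.82 in the other, a difference of 2.70 ± 0.13 (adjusted p = 6.22e-15).

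Phkb rose by 2.42 in the ERRalpha class and by 2.47 ± 0.15 in the other, and the difference of -0.05 ± 0.21 was not called (adjusted p = 0.952). Pfkp rose in the ERRalpha class, changed by 0.23 in the other, and differed by 1.97 ± 0.52 (adjusted p = 0.0192). The proteasome had 25 of 31 genes higher in the ERRalpha/ERRgamma class, and the cytosolic ribosome 60 of 63, of which 38 differed from the ERRalpha class. Amy1 changed by -2.01 in the ERRalpha class and by -0.72 in the other, a difference of -1.28 ± 0.32 (adjusted p = 0.0148). Without wild-type replicate 2 or knockout-labelled replicate 3 of the ERRalpha class, neither difference was called (adjusted p = 0.0511 and 0.0524 for Pfkp, 0.0747 and 0.0606 for Amy1).

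Of the 242 genes higher in the ERRalpha EDL, 11 were lower in the ERRalpha/ERRgamma EDL, and Nupr1 was the 1 lower gene that was higher there. Ldhb rose by 0.85 in the first and changed by -1.49 in the second, a difference of 2.34 ± 0.21 (adjusted p = 1.96e-09). Clybl, a mitochondrial enzyme that clears a product of itaconate, read 3.85, 3.42 and 3.46 in wild-type and 4.34, 4.31 and 4.45 in knockout-labelled ERRalpha libraries (0.79 ± 0.21, adjusted p = 0.0312) and changed by -2.54 in the other class. Its difference of 3.33 ± 0.29 (adjusted p = 1.96e-09) held in 10 of 10 alternatives, but its rise was lost without wild-type replicate 2 (adjusted p = 0.125) or 3 (0.118) or knockout-labelled replicate 1 (0.0863), 2 (0.0723) or 3 (0.107). Fbxo44, Luzp1, Bcl2l13 and Rdh13, chosen after their values were seen, were also called higher in soleus of the ERRalpha class. Fbxo44, a ubiquitin ligase subunit gene, read 1.11, 0.86 and 0.78 against 2.22, 2.17 and 2.05 in EDL (1.23 ± 0.21, adjusted p = 0.000627), changed by 1.25 in soleus and by -1.25 in the ERRalpha/ERRgamma EDL.

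**Figure D5:**
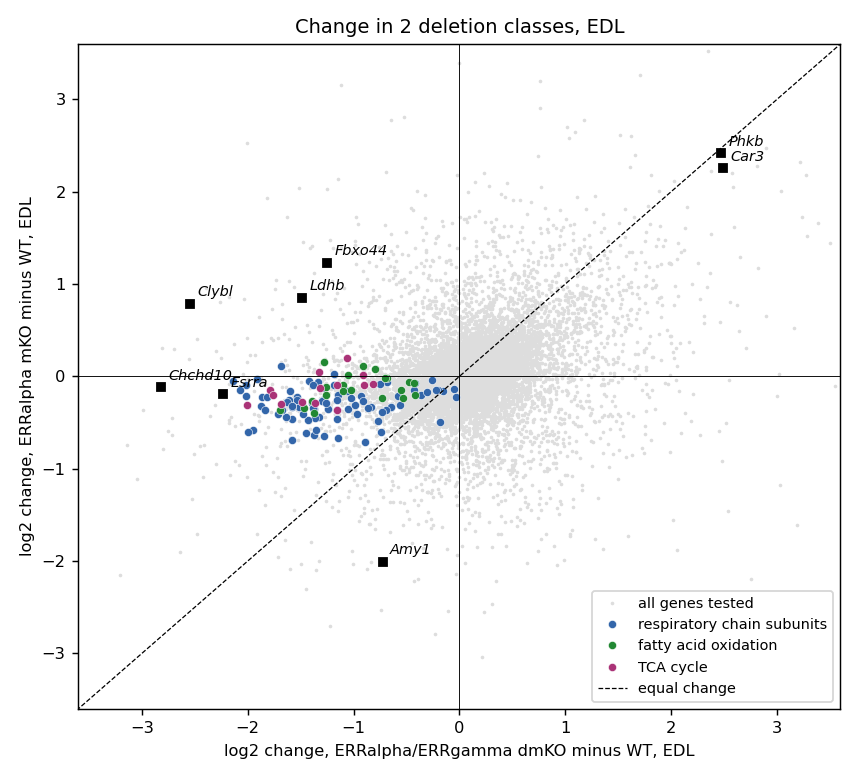
Change in log2 signal in the ERRalpha EDL (y axis) against the change in the ERRalpha/ERRgamma EDL (x axis), 1 point per gene, with respiratory chain, fatty acid oxidation and tricarboxylic acid cycle genes colored, 8 genes named and a dashed line of equal change. Respiratory chain points lie mostly above the line and left of 0 (medians -0.28 and -1.28), Phkb lies near the line at 2.42 and 2.47, and Ldhb, Clybl and Fbxo44 lie above 0 on the y axis and below 0 on the x axis.

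In the EDL of the ERRbeta/ERRgamma class, 29 of 13333 genes were called (0.218%). Of the 21 falls there, 7 (33.3%) were also called lower in the ERRalpha EDL, against 1.46% of all genes. The 7 include Amy1, which changed by -1.38 in the ERRbeta/ERRgamma class. Of the 8 rises there, 5 (62.5%) were also called higher in the ERRalpha EDL, against 1.82% of all genes. Another 2 genes were higher in the ERRalpha EDL and lower there. The respiratory chain had a median of -0.015 in the ERRbeta/ERRgamma class with none of 83 called. The change in the ERRalpha class differed from it in 55 of 13254 genes (0.415%), of which 13 were respiratory chain genes with a lower value in the ERRalpha class. Ndufa13 differed by -0.79 ± 0.12 (adjusted p = 0.000971) and Ndufa1 by -0.71 (adjusted p = 0.00737). Sod2 differed by -0.63 (adjusted p = 0.0129). Phkb changed by 0.05 there, a difference of 2.37 ± 0.21 (adjusted p = 4.92e-08), whereas Car3 changed by 1.74. Ldhb changed by -0.84 there, so it differed by 1.70 ± 0.21 (adjusted p = 3.85e-05). Csrp3, the muscle LIM protein gene, which was not called in the ERRalpha EDL (2.20 ± 0.66, adjusted p = 0.0659), differed by 4.88 ± 0.94 (adjusted p = 0.00868), and its wild-type libraries of the ERRalpha class spread from 1.16 to 4.21.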

How the data were processed

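RNA from whole muscle was sequenced as directional libraries from 400 ng of total RNA with 10 PCR cycles, per the labels' protocols. The authors deposited 1 table of log2 signals, quantile normalized per the table's name, for 45802 gene rows. Partek 6.6 and the builds GRCm38.p6 and mm10 are named in the submitters' processing notes. Which aligner and counting made the signals, and in what unit, is not given in the sources used here. That the log has base 2 was read from the values.

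Columns were matched to groups by muscle, class letters and Cre mark, FXp read as Cre-positive and FX- as Cre-negative. Columns of the ERRalpha EDL lack a class letter, and their animal numbers, shared with soleus columns of the class, placed them. Library and replicate numbers follow the column order within a group and were not matched to the replicate numbers in the titles. They pair no knockout-labelled library with a wild-type one.

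Empty cells were set to the lowest value for the filter and were left empty in the main fit. Of 17873 genes with a value (27 date-like symbols were left out), the 13404 with a mean above the 25th percentile, -5.24, were kept. All 6 ERRalpha EDL libraries had a value in 12436 of them. limma 3.58.1 in R 4.3.3 fitted 12 group means to all 36 libraries, with a trended variance shared by all groups, and differences between classes or muscles were contrasts of that fit. P-values rest on the spread between animals within groups, pooled over the 12 groups, and not on the ERRalpha EDL alone. The main fit treated EDL and soleus libraries of the same animal as independent. Coordinates are GENCODE vM21 on GRCm38, promoter windows RefSeq on GRCm38.p6. Summaries and figures used Python 3.11.15, pandas 2.3.3 and matplotlib 3.10.9. The code was tested on simulated data.

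Named genes were the receptors, the 10 called genes each way with the largest change, of those whose level reached the median and whose groups do not overlap, up to 4 members per list by lowest p, all members of 4 short lists, and the 5 largest differences each way between contrasts. The members and lists were chosen with earlier results of these data known.

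Alternatives were a fit of the 6 libraries alone, one of the 18 EDL libraries, no filter or a stricter one on low values, missing values at the lowest value, equal library medians, no variance trend, array weights, the animal as a correlated block (EDL and soleus libraries share animal numbers in their column names), and leaving out each library. Some settings for list counts and the 18 EDL libraries for the contrasts, and the animal block for the contrast with soleus, were added after seeing the data.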

Additional observations from a re-analysis of the deposited data

Results flagged for a closer look

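The change between knockout-labelled and wild-type muscle of the ERRalpha class differed between EDL and soleus in 2 genes, by limma's test of the difference itself, and in 9 with the animal as a correlated block. Phkb, the beta subunit of phosphorylase kinase, differed by 2.36 ± 0.21 on the log2 scale (adjusted p = 5.69e-08) and was called in 10 of 10 alternatives. Rab15, a small GTPase of endosomes that was chosen after its values were seen, differed by 3.18 ± 0.57 (adjusted p = 0.034) and was called in 5 of 10. It was not called without a filter on low values (adjusted p = 0.0596), nor without EDL wild-type replicate 1 (0.0521) or 3 (0.059) or knockout-labelled replicate 1 (0.0726) or 3 (0.149). Rab15 read -3.98, -3.75 and -5.09 in wild-type and -0.94, -1.34 and -0.74 in knockout-labelled EDL, all low signals, a rise of 3.26 ± 0.40, and changed by 0.08 in soleus. With 3 libraries per group, no search for single libraries far from their group was made.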

How the results depend on the processing

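Of 157 genes followed through 13 to 15 alternatives each, since 10 genes had no value in some, 95 were called, all 95 kept their sign in those that gave a value, and 42 kept their call in them. Fitting only these 6 libraries called 201 genes, 109 higher and 92 lower, and left 29 respiratory chain, 2 tricarboxylic acid cycle, 2 proteasome and 3 mitochondrial dynamics genes. Leaving out 1 library at a time gave 225 to 303 calls, 107 to 171 higher and 106 to 132 lower, 29 to 43 in the respiratory chain, 2 in the tricarboxylic acid cycle, 3 to 6 in the proteasome, 2 to 5 in the Z-disc list, 0 to 1 in fatty acid oxidation and 3 to 5 in mitochondrial dynamics. Proteasome calls numbered 4 with equal library medians and 4 without a variance trend, Z-disc calls 8 in the 18 EDL libraries, and array weights gave 1 fatty acid oxidation call. Genes that differed between EDL and soleus numbered 1 without a filter, 5 with missing values at the lowest value and 1 to 5 when 1 library was left out. With the shorter motif AAGGTCA, 11 promoters of genes called lower and 9 of respiratory chain genes matched, against 0 and 3 with TNAAGGTCA.

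Directions turned only in genes that were not called. With equal medians these were Calm3 (-0.011), Mfn2 (-0.015) and Vegfa (-0.0026), with array weights Calm3 (-0.00047), and with missing values at the lowest value Car5b (-1.36). Leaving out 1 library moved Phkg1 from -0.019 to 0.085, Phkg2 from -0.051 to 0.40, Calm3 from -0.078 to 0.066, Car4 from -0.51 to 0.073, Car8 from -0.39 to 0.077, Myh4 from -0.10 to 0.019, Myh7 from -1.30 to 0.76, Acadm from -0.083 to 0.10, Mfn2 from -0.021 to 0.013, Vegfa from -0.033 to 0.037, Sln from -1.30 to 0.026, Aebp1 from -0.10 to 0.43 and Ephx2 from -0.044 to 0.32. The causes were not tested.

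No paired analysis was possible because the knockout-labelled and wild-type libraries compared come from different animals and carry no shared number in the table. EDL and soleus libraries do share animals. With the animal as a correlated block (consensus correlation 0.130) 447 genes were called, and 9 differed between EDL and soleus, a fit added after seeing the data. Depth is unknown, so genes with low signals are the least certain.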
